A study of Homo sapiens with 2 samples.

Results

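The p53 target genes described here were MDM2, CCNG1, BTG2, RRM2B, C12orf5, SESN1, FDXR, GDF15 and ZMAT3, 9 genes chosen by symbol from 55773 gene symbols in the deposited annotated rows. C12orf5 is the older symbol of TIGAR. Each of the 9 had 1 annotated row in each library. They were compared between NCI-H2030 cells that received miR-494-3p AS and NCI-H2030 cells that received SC, called AS and SC below. The labels spell out neither abbreviation. NCI-H2030 is an established human lung adenocarcinoma cell line, both libraries came from this 1 line, and the title of the series names miR-494-3p together with SET, an inhibitor of protein phosphatase 2A. The labels give no dose or time. There was 1 library in each group, so no test, error or spread between replicates could be computed, and each difference is one between these libraries.

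p53 is a transcription factor that is held at a low level by MDM2, a ubiquitin ligase that marks it for degradation and is itself encoded by a p53 target gene. When DNA is damaged, p53 accumulates and switches on genes that stop the cell cycle, supply nucleotides for repair, limit oxidants, or signal to other tissues. NCI-H2030 is catalogued as carrying a mutation in the p53 gene, and several of these targets are also known to answer to other stress pathways, GDF15 among them.

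The treatment is named after a microRNA, whose mature sequence, from RefSeq (GRCh38.p14, chr14:101029681-101029702, plus strand), is shown first because it defines the sites searched in the 3' UTRs of the target genes. Capitals mark the seed, bases 2 to 8.

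miR-494-3p: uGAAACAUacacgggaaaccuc

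The sites searched were ATGTTTCA and its 7-base parts ATGTTTC and TGTTTCA, on the transcript strand, in the longest GENCODE release 29 3' UTR of each gene. At least 1 site was in the 3' UTR of MDM2, RRM2B, SESN1 and ZMAT3 and none in that of CCNG1, BTG2, C12orf5, FDXR or GDF15. Among 10575 measured protein coding genes with an annotated 3' UTR, 27.7% had a site. The site of 8 bases in MDM2, the 2 sites in SESN1 and the site in ZMAT3 are printed with their surroundings, the site in capitals.

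MDM2, bases 5794 to 5801 of a 3' UTR of 10837 bases: taggcattttcATGTTTCAgtcctacaatc
SESN1, bases 437 to 443 of 1107: gaatagatggcTGTTTCAgttaagctatt
SESN1, bases 745 to 751 of 1107: ttttgatatgcTGTTTCAcaggatcctga
ZMAT3, bases 3641 to 3647 of 7794: aagaaaattcgTGTTTCAactaaaagatt

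MDM2 had 2 further sites of 7 bases, at bases 4331 to 4337 and 10659 to 10665, and RRM2B had 1 site of 8 bases. The 3' UTRs of MDM2, RRM2B and ZMAT3, at 10837, 3631 and 7794 bases, were longer than the median of 1209 bases over measured coding genes. SESN1, at 1107 bases, had 2 sites in a shorter one.

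What joins these genes is the factor that is known to bind near them, so their promoters were also searched for the p53 response element, 2 adjacent copies of a 10-base element. RefSeq promoter windows of 300 bases, 250 before to 50 after a gene's start, covered 8 of the 9 genes, all but RRM2B, in 16 windows. A match was a run of 20 bases that kept the C and the G of both copies and differed from the consensus at 3 bases or fewer. The element reads the same on both strands. Of 27305 genes with a window, 1.37% had a match, and of the 8 target genes 4 had one. The 8 were chosen as known p53 targets, so nothing is read from that share. They had 16 windows, and the 27305 genes had 35116, so the number of windows per gene differed too. Capitals mark the 4 central bases of each copy.

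MDM2, chr12:68808923-68808942, plus strand, 2 differences: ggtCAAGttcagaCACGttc
GDF15, chr19:18386186-18386205, plus strand, 3 differences: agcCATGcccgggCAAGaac
SESN1, chr6:109009018-109009037, minus strand, 3 differences: ggaCAAGtctccaCAAGtca
FDXR, chr17:74872996-74873015, minus strand, 3 differences: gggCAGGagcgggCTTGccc

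These coordinates are of GRCh38.p14. In MDM2 the match was absent from both windows of the upstream promoter and present in both windows of the internal one, which is known as the p53-responsive promoter of this gene. A match describes letters in a window and shows no binding in these cells.

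Both libraries were of similar depth, with a most common deposited coverage of 3.54 per unit of FPKM in AS and 3.62 in SC. More genes were higher than lower in AS. Among 13669 measured genes, those with a mean of at least 1 TPM over both libraries, the median log2 ratio was 0.28 in TPM. All log2 ratios here are log2((AS + 1)/(SC + 1)), which understates the difference of genes of low level. Of 10 epithelial and lung adenocarcinoma markers, KRT7, KRT8 and KRT18 stood between 55.2 and 558 TPM, 5 were measured, and NKX2-1, SFTPB, SFTPC, KRT19 and CDH1 were at or near 0 in both libraries. Of the markers of other cell types, PTPRC, CD3E, KRT5 and KRT14 were listed at 0 in both, whereas CD68 was at 203 TPM in AS and 285 TPM in SC and COL1A1 at 15.8 TPM in AS and 26.3 TPM in SC. COL3A1 was at 7.23 TPM in AS and 4.32 TPM in SC, and SYP at 8.09 TPM in AS and 8.31 TPM in SC. The markers of other cell types summed to 234 TPM in AS and 324 TPM in SC, and the epithelial and lung markers to 883 TPM in AS and 1114 TPM in SC. The part of these markers in the differences below was not tested.

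The 9 genes differed widely in level but stood in the same order in both libraries. GDF15 was the most abundant, and it held 71.8% of their summed TPM in AS and 85.0% in SC. It was followed by FDXR, CCNG1, C12orf5, MDM2, RRM2B, BTG2, ZMAT3 and SESN1. FDXR and CCNG1 were at 16.5 and 16.2 TPM in AS, where no spread is known that could separate them. With a mean of at least 1 TPM, 7 of the 9 were measured, and ZMAT3 and SESN1 were not.

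**Figure D1:**
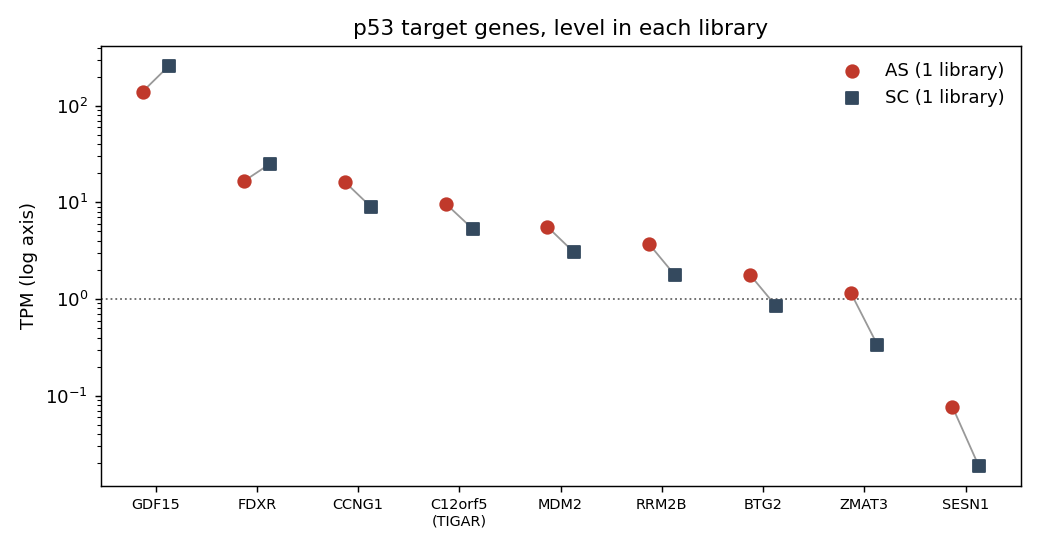
Level of the 9 p53 target genes in TPM on a log axis, with 1 point for the AS library (red circle) and 1 for the SC library (dark square); the dotted line is 1 TPM. GDF15 and FDXR are lower in AS, and the other 7 genes are higher in AS. SESN1, at 0.0771 TPM in AS and 0.0189 TPM in SC, is too low for a fold to be drawn.

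Of the 7 measured genes, 0 were past 2-fold upward in AS in TPM, with 16.5% of all measured genes, and 0 were past 2-fold downward, with 2.17%. Below that threshold the genes parted into 5 that were higher in AS, with log2 ratios of 0.60 to 0.80, and 2 that were lower. The median over the 7 was 0.70, against 0.28 over all measured genes. Relative to that median of all genes, the 5 stood 0.31 (BTG2) to 0.52 (CCNG1) higher, FDXR at -0.85 and GDF15 at -1.16, past 2-fold. In a bulk library, a difference in every cell and a difference in the share of cells that express a gene cannot be told apart. In FPKM the counts were also 0 higher, with 9.37% of all measured genes, and 0 lower, with 1.64%. FPKM is no separate measure, as TPM is FPKM times 1 constant in each library, 2.13 in AS and 1.98 in SC. Its log2 ratios differ from those in TPM only through these constants and the 1 added. In the coverage column, which is not scaled to the library, 0 were higher, with 9.13% of all measured genes, and 1 was lower, GDF15, with 1.88%. Coverage had no fixed relation to FPKM. Relative to the coverage per FPKM most common in its library, it was 1.00 for MDM2 and 0.14 for C12orf5 in both libraries. For CCNG1 it was 0.77 in AS and 0.95 in SC, and for RRM2B 0.87 in AS and 1 in SC. Coverage ratios and TPM ratios are therefore not interchangeable. With 0.1 TPM in place of 1 TPM added before the ratio, BTG2 and RRM2B passed 2-fold upward, 2 of 7 with 23% of all measured genes, and 0 passed it downward, with 3.67%.

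MDM2, the ubiquitin ligase of p53 (ENSG00000135679, chr12:69201956-69239214, plus strand), was at 5.59 TPM in AS and 3.06 TPM in SC, a log2 ratio of 0.70. Its coverage was 9.31 in AS and 5.61 in SC, with a log2 ratio of 0.64, and its log2 ratio in FPKM was 0.51. Its last part overlaps RP11-611O2.3, an annotated row on the same strand inside MDM2 (chr12:69235726-69236164), at 7.86 TPM in AS and 1.96 TPM in SC. Reads of such overlapping rows cannot be told apart, and the level of MDM2 is uncertain to that extent. The rows assembled from the reads did not span the gene in either library. The assembled locus with the longest overlap was at 1.90 TPM in AS and 1.85 TPM in SC. A further locus over the first part of the gene, starting 17 bases after its start and 1096 bases long, was at 2.21 TPM in AS, and SC had no locus there.

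CCNG1 (ENSG00000113328, chr5:162864575-162873157, plus strand) encodes cyclin G1, an atypical cyclin that works with protein phosphatase 2A on MDM2. It was at 16.2 TPM in AS and 8.91 TPM in SC, a log2 ratio of 0.80. With 1 TPM added this was the largest log2 ratio of the 9 genes in TPM, but with 0.1 TPM added those of ZMAT3 (1.52), RRM2B (1.05) and BTG2 (1.00) were larger than that of CCNG1 (0.86). Its coverage was 20.9 in AS and 15.5 in SC, a log2 ratio of 0.41, the smallest of the 5 higher measured genes in that column. The assembled rows divided CCNG1 differently in the libraries, with 1 locus of 18.1 TPM over nearly the whole gene in AS and 2 loci of 1.83 and 15.1 TPM in SC.

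BTG2, an antiproliferative protein that recruits the deadenylase complex to messenger RNAs (ENSG00000159388, chr1:203274619-203278730, plus strand), was at 1.79 TPM in AS and 0.842 TPM in SC. Its log2 ratio was 0.60 in TPM and 0.63 in coverage. An assembled locus of 1.79 TPM was at BTG2 in AS, and none was there in SC.

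Of the genes of nucleotide supply and metabolism, RRM2B, the p53-inducible small subunit of ribonucleotide reductase (ENSG00000048392, chr8:103216730-103251346, minus strand), was at 3.75 TPM in AS and 1.76 TPM in SC, a log2 ratio of 0.78. Its coverage was 5.45 in AS and 3.23 in SC. The assembled rows had 1 locus of 3.69 TPM over the whole gene in AS and 2 fragments of 9.35 and 1.09 TPM in SC. The other ribonucleotide reductase subunits, which serve DNA replication, were far more abundant and were past 2-fold in TPM. RRM1, the large subunit, was at 87.5 TPM in AS and 33.3 TPM in SC (log2 ratio 1.37), and RRM2, the small subunit of dividing cells, at 183 TPM in AS and 85.5 TPM in SC (1.09).

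C12orf5 encodes TIGAR, a phosphatase that lowers fructose-2,6-bisphosphate and with it glycolysis (ENSG00000078237, chr12:4430371-4462338, plus strand). It was at 9.60 TPM in AS and 5.33 TPM in SC, a log2 ratio of 0.74, and its coverage was 2.29 in AS and 1.40 in SC. In each library 1 assembled locus spanned the whole gene, with the TPM of the annotated row. PFKFB4 and PFKFB3, related enzymes that make and degrade the same metabolite, were at 20.3 TPM in AS and 30.9 TPM in SC and at 41.7 TPM in AS and 35.2 TPM in SC. PFKFB2, of the same family, was at 1.995 TPM in AS and 0.606 TPM in SC.

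SESN1, a sestrin that restrains the growth kinase complex mTORC1 (ENSG00000080546, chr6:109307640-109416022, minus strand), was at the lower edge of what the libraries show, at 0.0771 TPM in AS and 0.0189 TPM in SC. No fold is drawn from these values. The assembled rows gave more, with 3 loci of 2.42, 1.03 and 0.772 TPM within SESN1 in AS and none in SC. Its relative SESN2, also a p53 target, was at 7.49 TPM in AS and 7.96 TPM in SC, and SESN3 at 0.165 TPM in AS and 0.0597 TPM in SC.

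FDXR, the mitochondrial reductase that passes electrons to ferredoxin (ENSG00000161513, chr17:72858619-72869156, minus strand), was lower in AS. Its level was 16.5 TPM in AS and 25.1 TPM in SC, and its log2 ratio -0.57. Its coverage was 8.87 in AS and 14.7 in SC, with a log2 ratio of -0.67. The assembled locus over the gene was at 19.1 TPM in AS and 29.0 TPM in SC. Of the ferredoxins it serves, FDX1 was at 8.66 TPM in AS and 7.70 TPM in SC. FDX1L was at 69.0 TPM in AS and 59.0 TPM in SC, a log2 ratio of 0.22 in TPM but of -0.19 in coverage.

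GDF15, a secreted cytokine of the TGF-beta superfamily that rises in many kinds of cell stress (ENSG00000130513, chr19:18485541-18499986, plus strand), had the most negative ratio of the 9 genes. It was at 139 TPM in AS and 258 TPM in SC, a log2 ratio of -0.88, which put it at percentile 3.16 of all measured genes. Its coverage was 83.6 in AS and 170 in SC, a log2 ratio of -1.02. The assembled locus was at 139 TPM in AS and 257 TPM in SC, so all the measures gave about the same difference. The microRNA gene MIR3189 lies in an intron of GDF15, and its row had a coverage of 1 in each library.

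ZMAT3, a zinc finger protein that binds RNA and alters splicing (ENSG00000172667, chr3:178735011-178790067, minus strand), was not measured by the filter, at 1.14 TPM in AS and 0.335 TPM in SC. Its log2 ratio was 0.68 with 1 TPM added. The value depends on that addition, and with 0.1 TPM added it was 1.52. Its coverage was 1.90 in AS and 0.614 in SC. In AS 2 assembled loci of 1.30 and 2.10 TPM covered parts of ZMAT3, and in SC none did.

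**Figure D2:**
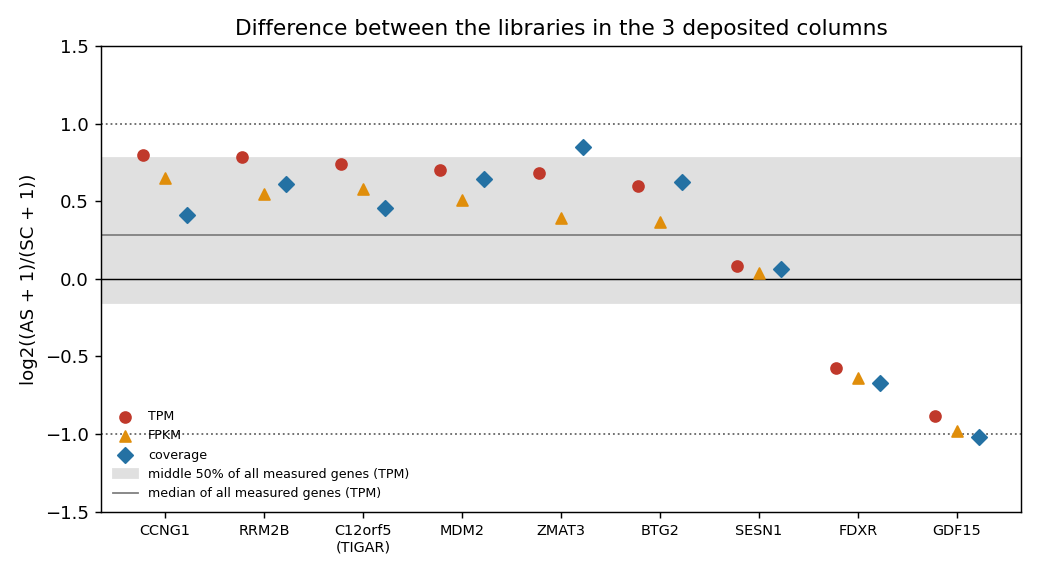
log2((AS + 1)/(SC + 1)) of each p53 target gene in the deposited TPM (red), FPKM (orange) and coverage (blue), with the middle 50% of all measured genes in TPM (grey band) and dotted lines at 2-fold. FDXR and GDF15 lie below the band in every column, and only the coverage value of GDF15, -1.02, passes the lower line.

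Base composition went along with this division. Among measured protein coding genes split into 10 equal bins by the GC content of the longest coding transcript, the median log2 ratio was 0.89 in the bin of the lowest GC content and -0.29 in that of the highest. The measured genes that were higher in AS had a GC content of 36.4% (RRM2B), 38.2% (CCNG1), 41.9% (MDM2), 44.2% (C12orf5) and 50.3% (BTG2). The genes that were lower had 64.3% (FDXR) and 62.9% (GDF15). In TPM the log2 ratios of all 5 higher genes lay between the quartiles of their own bin, with differences from its median of -0.20 for MDM2 to 0.16 for BTG2. FDXR and GDF15 lay below the lower quartile of theirs, by 0.28 below the bin's median for FDXR and by 0.69 for GDF15. In coverage BTG2 lay above the upper quartile of its bin, CCNG1, FDXR and GDF15 below the lower, and MDM2, RRM2B and C12orf5 between them. GDF15 has the highest GC content of its bin, and its log2 ratio was also below the lower quartile of the next bin, -0.52. The part of base composition in these differences was not tested.

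**Figure D3:**
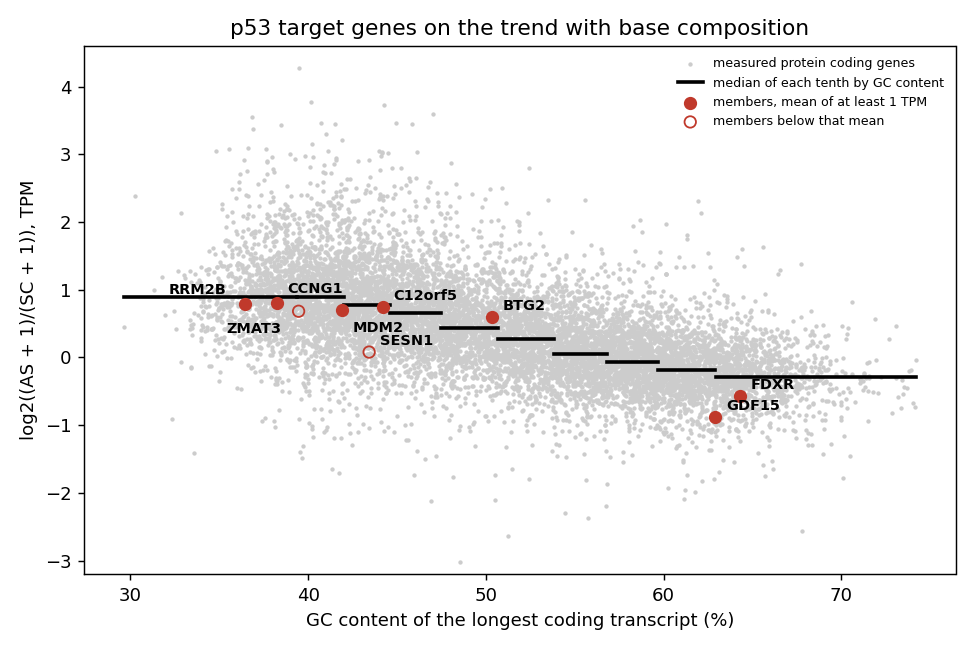
log2((AS + 1)/(SC + 1)) in TPM against the GC content of the longest coding transcript, for measured protein coding genes (grey), with the median of each of 10 bins (black bars) and the p53 target genes in red, filled where measured. CCNG1, RRM2B, MDM2, C12orf5 and BTG2 lie near the medians of their bins, and GDF15 lies 0.69 below its own.

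Of the 7 measured genes 2 had a site for the miR-494-3p seed, MDM2 and RRM2B, a share close to the 27.7% of measured coding genes, so nothing is read from their place. Both were higher in AS, and CCNG1, C12orf5 and BTG2, which had none, had log2 ratios in the same range. Any part of the sites in these ratios was not tested. The promoter match was found in MDM2, higher in AS, and in GDF15 and FDXR, lower in AS. RRM2B, higher in AS, had no window and was not searched.

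Of 42 other p53 targets listed, 31 were measured, 20 with a log2 ratio above 0 and 11 below. Of the 31, 3 were at least 2-fold higher in AS, 0 at least 2-fold lower and 28 within 2-fold, so that 9.68% were higher against 16.5% of all measured genes. Their median log2 ratio was 0.41 in TPM and 0.15 in coverage. PLK2, a kinase of the centrosome, was at 23.0 TPM in AS and 8.06 TPM in SC, a log2 ratio of 1.40. PERP, a membrane protein of desmosomes and cell death, was at 60.5 TPM in AS and 28.2 TPM in SC (1.08). PPM1D, a phosphatase that turns off p53, was the third gene past 2-fold (1.37); it was named after its values were seen, at 1.89 TPM in AS and 0.117 TPM in SC, and its log2 ratio was 0.23 in coverage. Below 2-fold stood PTP4A1, a tyrosine phosphatase (0.97), DRAM1, a lysosomal protein of autophagy (0.97), PRKAB1, a subunit of the energy sensor AMPK (0.91), and GADD45A, a stress protein of growth arrest (0.88). In coverage 1 of the 31, PLK2, was at least 2-fold higher, with 9.13% of all measured genes, and 0 were lower, with 1.88%.

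Of 27 listed regulators of p53, 23 were measured, and 6 were at least 2-fold higher in AS, 0 at least 2-fold lower and 17 within 2-fold. This is 26.1% of the measured regulators, against 16.5% of all measured genes, of which 2.17% were lower. The log2 ratio was above 0 in 17 of the 23 and below 0 in 6. Counted in coverage, 4 of the 23 were at least 2-fold higher, with 9.13% of all measured genes, and 0 were lower, with 1.88%. These 4 were not a subset of the 6. USP10 and RCHY1 passed 2-fold in both columns, whereas EP300 and SIRT1 passed it in coverage and stood just below it in TPM. ATR and DYRK2 were lower in AS in TPM but higher in coverage. EP300, SIRT1, ATR and DYRK2 were named after their values were seen. The largest ratios in TPM were smaller in coverage. USP7, a deubiquitinase that stabilises MDM2 and p53, was at 34.3 TPM in AS and 5.50 TPM in SC, a log2 ratio of 2.44 in TPM and of 0.57 in coverage. UBE4B, a ubiquitin ligase that acts with MDM2, was at 17.7 TPM in AS and 2.97 TPM in SC, with 2.24 in TPM and 0.59 in coverage. USP10, which removes ubiquitin from p53, was at 37.9 TPM in AS and 9.17 TPM in SC, with 1.94 in TPM and 1.37 in coverage.

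CHEK1, the checkpoint kinase of replication stress, was at 17.5 TPM in AS and 6.26 TPM in SC (log2 ratio 1.35, and 0.67 in coverage). BRD7, a bromodomain protein that binds p53, was at 56.3 TPM in AS and 25.0 TPM in SC (1.14, and 0.71 in coverage). TP53BP1, a DNA break protein that binds p53, was at 28.6 TPM in AS and 14.7 TPM in SC (0.92, and 0.68 in coverage). The sixth regulator past 2-fold was RCHY1, a ubiquitin ligase of p53 (1.33), at 2.76 TPM in AS and 0.494 TPM in SC, named after its values were seen. Its log2 ratio in coverage was 1.08. The median GC content of the measured regulators was 47.6%, and 14 of the 23 lay above the median TPM ratio of their own GC bin. For the other p53 targets the median was 50% and 15 of 31 lay above.

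Of 24 relatives of the 9 genes, 17 were measured, 2 were at least 2-fold higher in AS, RRM1 and RRM2, and 0 at least 2-fold lower. The higher genes are 11.8% of the measured relatives, against 16.5% of all measured genes, of which 2.17% were lower. Those close to 2-fold were TOB2 (0.98), BTG3 (0.93) and BTG1 (0.80), antiproliferative proteins of the family of BTG2, PFKFB2, an enzyme related to TIGAR (0.90), and CCNI, a cyclin related to CCNG1 (0.84). BTG3 was at 21.9 TPM in AS and 11.0 TPM in SC. MDM4, the partner of MDM2, was at 1.38 TPM in AS and 0.528 TPM in SC, below a mean of 1 TPM. CCNG2, the nearest relative of CCNG1, was at 1.21 TPM in AS and 1.20 TPM in SC.

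**Figure D4:**
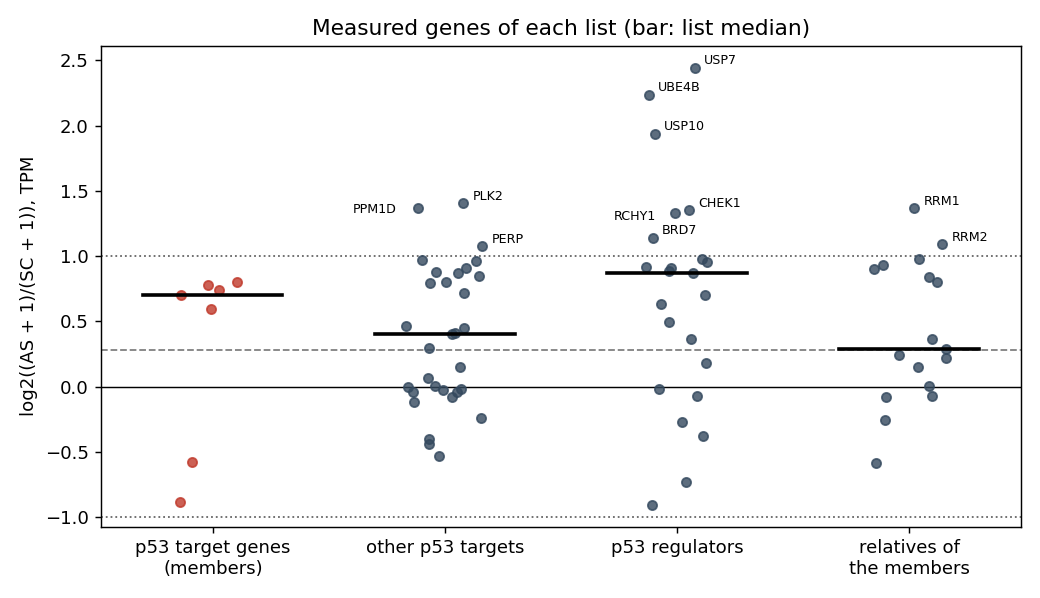
log2((AS + 1)/(SC + 1)) in TPM of the measured genes among the p53 target genes described here (red), other p53 targets, p53 regulators and relatives, 1 point a gene, with list medians (bars), the median of all measured genes (dashed line) and 2-fold (dotted lines). Named points are past 2-fold, and the regulators have the highest list median, 0.87, against 0.70 for the measured members of the p53 target genes.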

How the data were processed

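Per the labels, total RNA of NCI-H2030 cells was made into 1 directional library for each treatment. The authors deposited a table per library with a coverage signal, FPKM and TPM for annotated genes and for loci assembled from the reads, per the file headers. What aligned and quantified the reads is not given in the sources used here. In AS the deposited TPM signal of annotated rows summed to 968917 and in SC to 973681. Read counts are unknown, so no counting interval was given. The submitters' processing notes name GRCh38 and hg38, but the starts of 0 of 9 genes equal those of GENCODE release 29 on GRCh38. Gene coordinates are printed as deposited and are not on the build of the promoter positions. The MDM2 row starts at chr12:69201956, whereas its GRCh38.p14 promoter windows end by chr12:68809073. Which build the gene coordinates are on was not checked against an annotation.

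Symbols were summed and 1 was added before the log2 ratio, in Python 3.11.15 with pandas 2.3.3. GC content and 3' UTRs came from GENCODE by gene identifier, mature microRNA and promoter sequences from RefSeq (GRCh38.p14). List genes were named by rule, the 6 largest absolute ratios where 1 library reached 5 TPM, and all measured relatives could be named. The genes and lists were chosen with earlier results of these data known. The calculation was tested on simulated data, where it recovered 100 of the genes raised 4-fold and 100 of those lowered among 8968 genes. That is the number of genes that averaged 5 TPM or more. A planted 4-fold change lies well past the 2-fold threshold, so this recovery checks the calculation only. It cannot show how well smaller differences are found, or those of genes of lower level such as MDM2, RRM2B and BTG2.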

Additional observations from a re-analysis of the deposited data

Results flagged for a closer look

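A signal was present in rows that the comparisons above do not use. RP11-611O2.3, an annotated row inside MDM2 on its strand, was at 7.86 TPM in AS and 1.96 TPM in SC, a log2 ratio of 1.58. For BTG2, SESN1 and ZMAT3, 3 of the genes, an assembled locus was listed in AS and none in SC. The same held for 1.15% of all measured genes, which include BTG2, and for 16.5% of genes above 0 with a mean below 1 TPM, which include SESN1 and ZMAT3. The opposite, a locus in SC and none in AS, held for 0.629% and 11.8%. The largest such locus was at 1.79 TPM for BTG2, at 2.42 TPM for SESN1 and at 2.10 TPM for ZMAT3. BTG2, with a mean of 1.31 TPM, lay just above the filter, and no share was computed for genes of a level like its own. In all, 15 assembled loci lay on the strand of the 9 genes in AS and 10 in SC, of 24627 assembled rows in AS and 24269 in SC. In both libraries these include loci with the position and TPM of the annotated rows RP11-611O2.3 and MIR3189. CCNG1 and RRM2B each had 1 locus in AS and 2 in SC, so the number of loci does not measure level. Which reads gave rise to these loci was not tested.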

How the results depend on the processing

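No paired analysis was possible because each group has 1 library. Only centring, trimmed mean scaling, FPKM, coverage and the assembled loci could turn the sign of a single gene. Of their 42 values 2 did, those of SESN1 after centring (-0.20) and trimmed mean scaling (-0.27), which subtract 0.28 and 0.35 from every ratio. The median log2 ratio of the measured p53 target genes was 0.70. It was 0.85 with 0.1 TPM added, also with no filter (an alternative chosen after seeing the data), 0.37 with 5 TPM added, 0.68 with no filter and 1 TPM added, 0.085 for the 4 genes that averaged 5 TPM or more, 0.42 after centring, 0.35 after trimmed mean scaling, 0.51 in FPKM, 0.45 in coverage and 0.38 in the assembled loci of 6 genes. The count of p53 target genes at least 2-fold higher was 0, and 2 with 0.1 TPM added (BTG2 and RRM2B, with 23% of all genes) and in the assembled loci (CCNG1 and RRM2B, with 16.1%). The loci of CCNG1 and RRM2B in SC were fragments of 1.83 and 1.09 TPM, and further SC fragments of 15.1 and 9.35 TPM were left out of these ratios. The count at least 2-fold lower was 0, and 1, GDF15, after centring (5.09% of all genes), after trimmed mean scaling (6.26%) and in coverage (1.88%). For the regulators the higher count was 6. It was 11 with 0.1 TPM added (23% of all genes), 9 in the assembled loci (16.1%) and 3 after trimmed mean scaling (7.8%). The lower count was 0, and 1 with 0.1 TPM added (3.67%), 2 after centring and 2 after trimmed mean scaling. For the other p53 targets the higher count was 3, and 6 with 0.1 TPM added and in the assembled loci, and 1 with 5 TPM added (5.32% of all genes), in FPKM (9.37%) and in coverage (9.13%). For the relatives it was 2, and 4 with 0.1 TPM added and 1 after centring (9.17%), after trimmed mean scaling and in FPKM. The cause was not tested. With 1 library a group and unknown read counts, differences of genes near 1 TPM such as BTG2 and ZMAT3 cannot be separated from counting error.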
